A study of Mus musculus with 9 samples.

Results

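The 36 genes described here make cholesterol, carry it, export it and sense it, and include the neighbouring enzymes that make fatty acids. They are a named list out of 24062 gene symbols in the count table and were taken by name, not by a threshold on a measured value. By role the list holds 5 regulators, 8 enzymes of the early steps from acetyl-CoA to squalene, 10 enzymes of the late steps from squalene to cholesterol, 2 genes of uptake and sterol transport, 5 genes of the liver X receptors (LXR) and efflux, and 6 genes of fatty acid synthesis. All 36 passed the filter on low counts.

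RNA-seq was run on 9 libraries of mouse embryonic fibroblasts (MEFs, connective tissue cells grown from mouse embryos) of the C57BL/6 strain, collected on day 4 after lentiviral infection. In the p21 group, 3 libraries came from cells given a lentivirus that overexpresses p21, the product of Cdkn1a. In the p16 group, 3 libraries came from cells given a lentivirus that overexpresses p16, a product of Cdkn2a. Both proteins inhibit cyclin-dependent kinases and slow the cell cycle. The empty-vector group held 3 libraries of cells infected with a control lentivirus. Cells of all 3 groups were labelled non-senescent, and each group was infected, so an effect of infection itself cannot be seen. The promoter of the vectors, the share of cells infected and whether replicates were separate cultures were not given in the sources used here, and p-values therefore measure the spread between these samples.

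Cells read their sterol content in the endoplasmic reticulum. When sterol is scarce, the escort protein Scap carries the SREBP transcription factors to the Golgi for cleavage, and the released factors switch on the genes of synthesis and uptake. When sterol is plentiful, Insig proteins hold Scap back, and oxysterols activate LXR, which switches on the exporters Abca1 and Abcg1 and the lipoprotein Apoe. Fibroblasts can make their own cholesterol, and dividing cells need it for new membrane.

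Promoters of this pathway are known for 3 short elements, the sterol regulatory element bound by SREBP, the CCAAT box bound by NF-Y and the GC box bound by Sp1. These were searched on both strands as TCACNCCAC, CCAAT and GGGCGG in windows of RefSeq (GRCm38.p6) that run from 250 bases before to 50 bases after each gene's start. Windows were found for 29 of the 36 members, and none was in the table for Fdps, Fdft1, Sqle, Stard4, Abcg1, Scd1 and Scd2. The stretches below show a regulator that fell with p21 (Srebf2), the SREBP-controlled sensor Insig1, an early enzyme with all 3 elements (Hmgcs1), a late enzyme that fell (Lss), the late enzyme that was higher (Hsd17b7) and an exporter that rose (Abca1). Capitals mark the elements, with ATTGG and CCGCCC for a CCAAT box and a GC box on the other strand, and no 2 marked elements overlap in these stretches. Each is written 5′ to 3′ on the strand of its gene, from GRCm38, and ends before the start of transcription. Each holds at most 200 bases and none of an annotated exon. Those of Srebf2, Insig1, Hsd17b7 and Lss therefore end at bases -89, -50, -37 and -18 from the start. Elements elsewhere in the windows are not printed. Among these are Srebf2 GC boxes that begin at bases -79, -52 and -34 and an Hsd17b7 CCAAT box that begins at base -12.
Srebf2, chr15:82147019-82147180, plus strand: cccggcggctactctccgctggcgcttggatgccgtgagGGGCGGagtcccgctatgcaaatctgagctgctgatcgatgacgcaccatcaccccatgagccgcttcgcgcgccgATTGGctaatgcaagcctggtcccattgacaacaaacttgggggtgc
Insig1, chr5:28071163-28071362, plus strand: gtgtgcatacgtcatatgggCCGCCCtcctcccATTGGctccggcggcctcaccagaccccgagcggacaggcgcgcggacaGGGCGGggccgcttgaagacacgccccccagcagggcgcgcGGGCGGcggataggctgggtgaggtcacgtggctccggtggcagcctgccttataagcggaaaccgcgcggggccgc
Hmgcs1, chr13:119690151-119690350, plus strand: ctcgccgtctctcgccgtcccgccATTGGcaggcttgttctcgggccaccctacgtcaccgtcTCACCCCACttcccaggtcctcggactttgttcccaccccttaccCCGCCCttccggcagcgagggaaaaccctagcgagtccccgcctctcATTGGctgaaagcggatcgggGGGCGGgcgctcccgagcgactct
Lss, chr10:76531388-76531587, plus strand: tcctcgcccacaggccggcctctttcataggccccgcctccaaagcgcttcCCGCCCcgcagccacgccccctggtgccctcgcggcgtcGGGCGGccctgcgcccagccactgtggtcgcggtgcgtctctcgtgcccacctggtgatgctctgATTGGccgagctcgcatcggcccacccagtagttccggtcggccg
Hsd17b7, chr1:169969242-169969408, minus strand: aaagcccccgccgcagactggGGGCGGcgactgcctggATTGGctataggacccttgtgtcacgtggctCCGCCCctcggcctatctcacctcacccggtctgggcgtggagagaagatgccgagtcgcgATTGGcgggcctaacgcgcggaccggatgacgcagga
Abca1, chr4:53159896-53160095, minus strand: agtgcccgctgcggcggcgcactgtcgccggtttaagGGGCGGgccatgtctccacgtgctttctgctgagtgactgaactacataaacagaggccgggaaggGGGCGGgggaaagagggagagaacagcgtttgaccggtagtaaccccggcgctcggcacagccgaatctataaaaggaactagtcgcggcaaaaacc
A CCAAT box was present in a window of 14 of the 15 synthesis members that had one, all but Acat2, and in none of the 4 LXR and efflux members with one (Nr1h2, Nr1h3, Abca1 and Apoe). Of 27025 genes in the table, 41.1% had it. A GC box was present in 14 of the same 15 synthesis members, all but Pmvk, and in Abca1 alone of those 4, against 38.2% of genes. The sterol regulatory element in this spelling was found in 1 member, Hmgcs1, at bases -137 to -129 from the start, and in 1.44% of genes. A match describes letters and is not evidence of binding.

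Total counts ran from 44455730 to 63152239 per library. The delivered genes followed the labels, and values of a group are given in the order of replicates 1, 2 and 3. Cdkn1a stood at 1773, 1429 and 1612 CPM (counts scaled to a common library size, on TMM-scaled totals) in the p21 libraries, against 371, 379 and 367 CPM with p16 and 350, 375 and 356 CPM with the empty vector. Cdkn2a stood at 1927, 1576 and 1691 CPM in the p16 libraries, against 48.1, 47.4 and 44.0 CPM with p21 and 36.9, 42.2 and 34.7 CPM with the empty vector. Fibroblast markers were abundant, with Col1a1 at 12411 CPM or more in every library, although Dcn (at most 4.12 CPM) and Lum (at most 1.002 CPM) were low. Of 5 hepatocyte genes, Alb, Ttr and Serpina1a had no counts, Apoa1 had at most 2 in a library and Afp at most 14. The 5 endothelial markers summed on average to 8.44 CPM with p21, 6.45 CPM with p16 and 5.66 CPM with the empty vector. For 6 epithelial markers these means were 16.2, 13.8 and 13.95 CPM, with Krt18 at 11.4 CPM or more. For 6 neural and glial markers they were 91.3, 89.2 and 87.9 CPM, with Tubb3 at 66.0 CPM or more. Of 8 adipocyte markers, Fabp4 and Pparg passed the filter on low counts and the others had at most 4 counts in a library. The 8 summed to 20.4, 21.4 and 14.1 CPM with p21, 18.4, 18.1 and 15.6 CPM with p16 and 13.95, 14.5 and 12.2 CPM with the empty vector, which is +37.8% with p21 and +28.4% with p16. Fabp4 rose with p21 (log2 fold change 0.61 ± 0.17, edgeR adjusted p 0.0141), and the part of adipocyte RNA in the levels of the members was not tested.

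With p21 most members that changed were lower, and the exporters Abca1 and Abcg1 were higher. Of the 36 members, 20 fell, 4 rose and 12 did not pass the test (edgeR quasi-likelihood F test, adjusted p under 0.05 over 14223 genes), where 20.1% of all genes tested fell and 19.8% rose, 39.9% together. The median log2 fold change of the 36 was -0.17, beside 0.0011 over all genes. With p16, set against the same empty-vector libraries, 5 members fell and 1 rose, where 5.56% of all genes fell and 5.80% rose. Between p21 and p16 directly, 12 members were lower and 1 was higher with p21, where 6.91% of all genes were lower and 6.15% higher. In 24 members all p21 libraries lay below all empty-vector libraries and in 4 they lay above, an order seen in 25.0% and 24.2% of all genes. With p16 the libraries lay below in 13 members and above in 2 (16.6% and 16.1% of all genes), and p21 lay below p16 in 17 and above in 1 (16.3% and 14.9%). With replicate number as a block, which pairs the libraries, the p16 count became 12 lower and 5 higher (10.1% and 11.3% of all genes). Scaling by library totals alone turned the split of all genes to 2173 higher and 3734 lower with p21, in place of 2816 and 2865, and to 617 higher and 1235 lower with p16, in place of 825 and 791. Between p21 and p16 it became 735 higher and 1254 lower, in place of 875 and 983. Under that scaling 24 members were lower and 2 higher with p21 (26.3% and 15.3% of all genes), 9 lower and 1 higher with p16 (8.68% and 4.34%), and 17 lower and 1 higher in p21 against p16 (8.82% and 5.17%). With replicates 1 and 2 alone, since replicate 3 of each group held the most macrophage marker RNA, 19 members were lower and 3 higher with p21, where 19.6% and 18.9% of all genes were. In that fit 7 members passed with p16, each of them lower (4.98% of all genes were lower and 5.59% higher), and 15 were lower and 1 higher in p21 against p16 (6.85% and 6.41%).

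**Figure D1:**
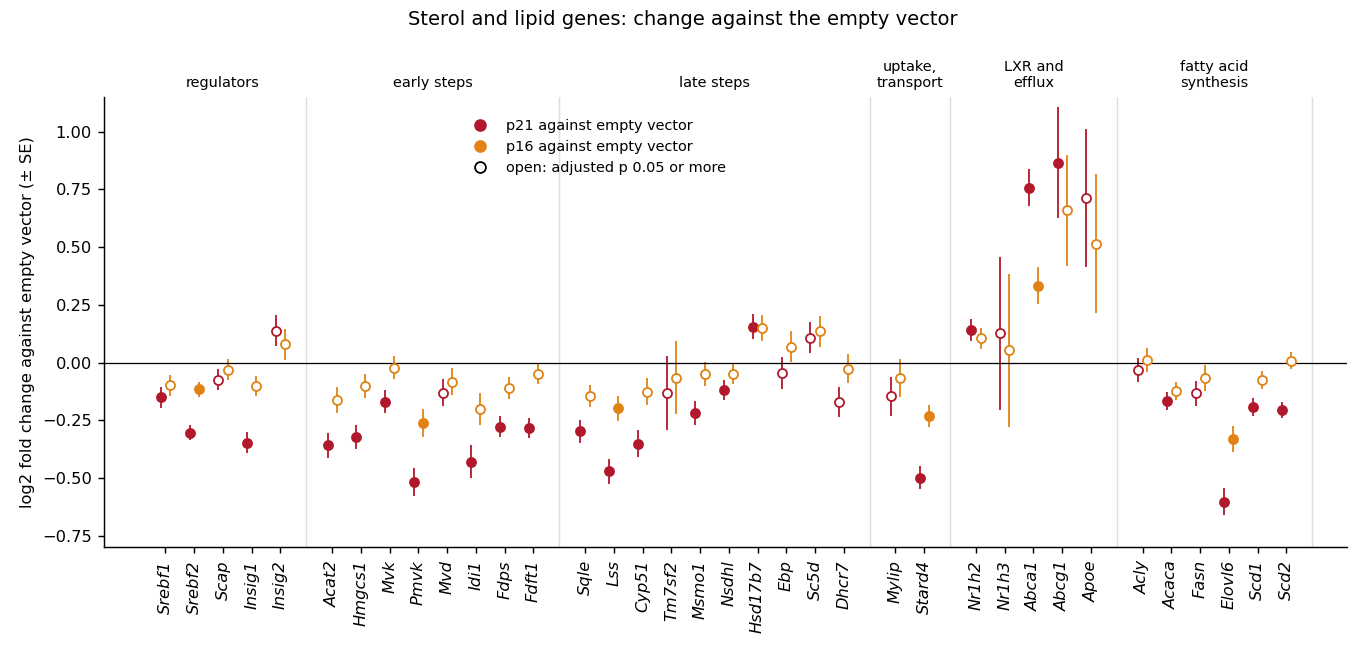
Log2 fold change of each of the 36 genes against the empty vector (y axis) by role (x axis), in p21 cells (red) and p16 cells (orange), with standard errors from the edgeR fit (3 libraries a group). Filled points passed adjusted p under 0.05; early steps lie below 0 in p21 cells, while Abca1 and Abcg1 lie above it.

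The regulators moved in part. Srebf2, the transcription factor that drives cholesterol synthesis genes, had 173, 169 and 164 CPM in the p21 libraries, 195, 186 and 195 CPM in the p16 libraries and 206, 207 and 211 CPM in the empty-vector libraries. No library of any group overlapped another group, and p16 lay in between. It fell with p21 (log2 fold change -0.30 ± 0.033, edgeR adjusted p 1.9e-05) and with p16 (-0.12 ± 0.033, edgeR adjusted p 0.0423), and was lower with p21 than with p16 (-0.19 ± 0.033, edgeR adjusted p 0.00295). The p16 call was the least secure of these, since it was lost without any 1 of the empty-vector or p16 libraries, or without p21 replicate 1, with an adjusted p of up to 0.194. Insig1, an anchor of Scap whose gene is itself under SREBP control, had 73.1, 72.5 and 79.2 CPM with p21, 89.8, 87.2 and 89.6 CPM with p16 and 99.3, 94.0 and 92.7 CPM with the empty vector. All p21 libraries lay below all others. Insig1 fell with p21 (-0.35 ± 0.045, edgeR adjusted p 7.43e-05) and was lower than with p16 (-0.25 ± 0.045, edgeR adjusted p 0.00377), while p16 against the empty vector did not pass (-0.10 ± 0.045, edgeR adjusted p 0.175).

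Srebf1, which encodes the SREBP forms that favour fatty acid synthesis, averaged 98.5 ± 4.45 CPM with p21, 102 ± 3.39 CPM with p16 and 109 ± 4.44 CPM with the empty vector (SD, n = 3 each). It fell with p21 (-0.15 ± 0.046, edgeR adjusted p 0.0204), a call that was lost without p21 replicate 1 or without empty-vector replicate 2 (adjusted p up to 0.0888). Scap, the escort of both factors, averaged 73.4 ± 2.597 CPM with p21, 75.6 ± 3.37 CPM with p16 and 77.2 ± 1.147 CPM with the empty vector, and passed no comparison. Of the exon length of Scap, 13.2% overlaps 5830462I19Rik on the other strand. Insig2, the second anchor, averaged 34.8 ± 3.32 CPM with p21, 33.4 ± 1.146 CPM with p16 and 31.7 ± 1.84 CPM with the empty vector. Its direction with p21 was opposite to that of Insig1 and did not pass (log2 fold change 0.14 ± 0.066, edgeR adjusted p 0.118), although it did with the replicate block (adjusted p 0.0399) and without p21 replicate 2 (adjusted p 0.0198). The difference between the Insig genes was not tested.

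The early steps were lower as a run of enzymes. With p21, 7 of 8 fell, where 20.1% of all genes did, and the median log2 fold change was -0.30. The remaining one, Mvd, passed with the replicate block or with library totals alone, where 24.2% and 26.3% of all genes fell. Hmgcs1, which condenses acetyl-CoA units into the precursor of mevalonate, had 171, 164 and 189 CPM with p21, 203, 199 and 208 CPM with p16 and 226, 206 and 223 CPM with the empty vector. The p21 libraries were the lowest of all, and p16 overlapped the empty vector. It fell by 19.99% with p21 (-0.32 ± 0.051 on the log2 scale, edgeR adjusted p 0.000325). Of its exon length, 12.1% overlaps Gm48342 on the other strand, whose reads the kit cannot separate. Pmvk, a mevalonate pathway kinase, had the largest fall among the early enzymes, with 14.8, 14.5 and 16.5 CPM with p21, 18.7, 17.8 and 18.2 CPM with p16 and 21.1, 21.8 and 22.7 CPM with the empty vector. The groups were fully separate, with p16 in the middle. Pmvk fell with p21 (-0.52 ± 0.061, edgeR adjusted p 3.42e-05) and with p16 (-0.26 ± 0.06, edgeR adjusted p 0.0161), and the p16 call did not hold without empty-vector replicate 3 or without p16 replicate 2 (adjusted p up to 0.0723).

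Idi1, the isomerase of the isoprenoid building blocks, had 74.4, 71.3 and 85.9 CPM with p21, 94.3, 87.1 and 89.98 CPM with p16 and 113, 99.0 and 99.3 CPM with the empty vector, and fell by 25.7% with p21 (log2 fold change -0.43 ± 0.071, edgeR adjusted p 0.000458). All p21 libraries were below all p16 libraries, and those below all empty-vector libraries, but p16 against the empty vector did not pass (-0.20 ± 0.071, edgeR adjusted p 0.0903). It passed under 6 of 17 alternatives, the block among them (adjusted p 0.00571). Acat2, the cytosolic thiolase that opens the pathway, had 42.8, 37.7 and 41.5 CPM with p21, 48.1, 48.2 and 43.6 CPM with p16 and 51.6, 52.3 and 52.7 CPM with the empty vector. It fell with p21 (-0.36 ± 0.055, edgeR adjusted p 0.000271), and again the p16 libraries lay between the others without overlap. Fdps, which makes farnesyl diphosphate, fell by 17.5% with p21 to 146 ± 10.9 CPM, against 177 ± 2.77 CPM with the empty vector (SD, n = 3 each). Fdft1, the squalene synthase at the branch to sterols, fell by 17.9% with p21 to 66.4 ± 2.33 CPM, against 80.9 ± 2.89 CPM with the empty vector. Both genes share exon sequence with a neighbour, 26.7% of Fdps with Gm43738 on the same strand and 18.3% of Fdft1 with Ctsb on the other, so their counts are less certain. Idi1 likewise shares 9.2% of its exon length with Gm48574 on the other strand. Mvk, mevalonate kinase, fell by 11.1% (edgeR adjusted p 0.017), which was lost without p21 replicate 1 or without empty-vector replicate 3 (adjusted p up to 0.0829). Mvd, the decarboxylase that yields isopentenyl diphosphate, averaged 25.1 ± 0.875 CPM with p21, 26.0 ± 1.99 CPM with p16 and 27.5 ± 1.02 CPM with the empty vector (log2 fold change with p21 -0.13 ± 0.058, edgeR adjusted p 0.093, 0.0401 with the block and 0.0244 with library totals alone).

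**Figure D2:**
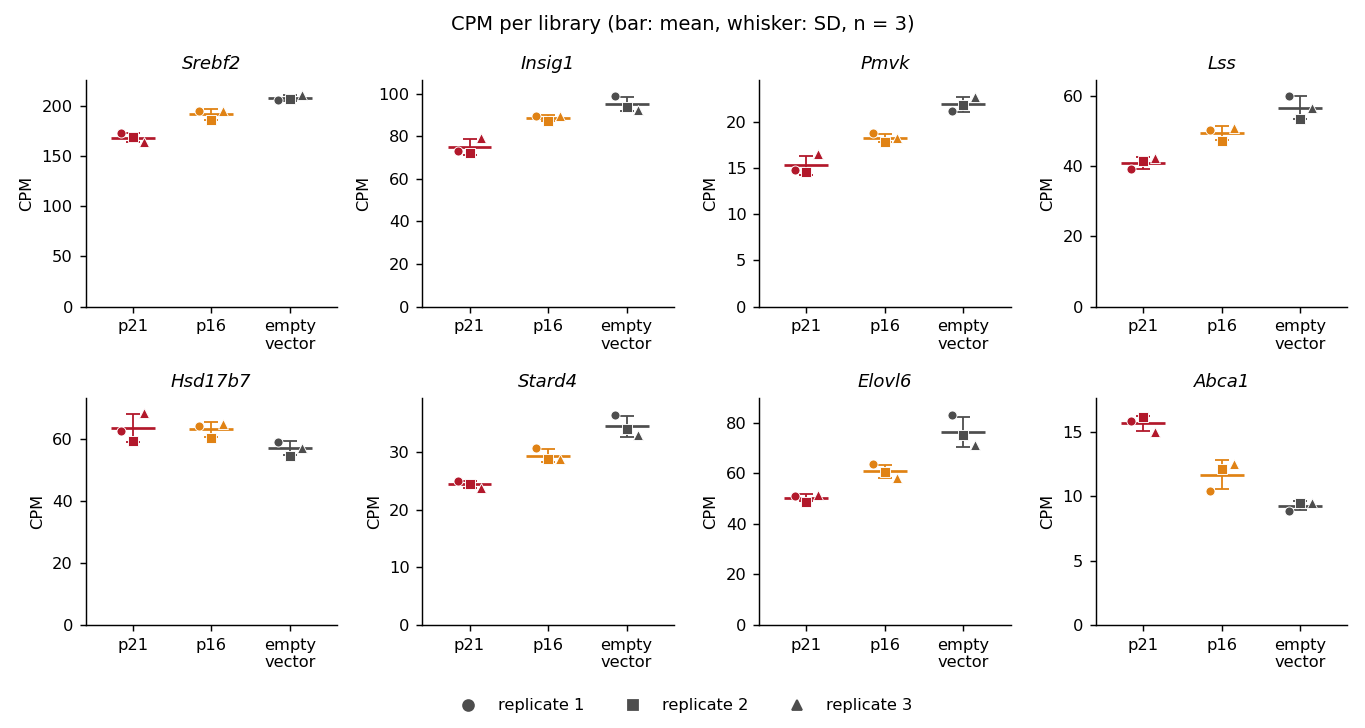
CPM (y axis, from 0) in each library of the p21, p16 and empty-vector groups for 8 of the genes, with the mean as a bar and the SD as a whisker (n = 3). For Srebf2, Pmvk, Lss, Stard4 and Elovl6 all p21 libraries lie below all p16 libraries and those below all empty-vector libraries, and for Abca1 the order is the reverse.

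The late steps were lower in part. The log2 fold change was below 0 with p21 in 8 of 10, and in 7092 of 14223 genes tested. With p21, 5 of 10 fell, 1 rose and 4 did not pass, where 20.1% of all genes fell and 19.8% rose. The median log2 fold change was -0.15. With the block 6 fell and 2 rose, where 24.2% of all genes fell and 24.0% rose. The members that fell were Sqle, Lss, Cyp51, Msmo1 and Nsdhl, which act from squalene to the removal of methyl groups from the sterol. Sqle, squalene epoxidase, had 98.9, 92.7 and 106 CPM with p21, 111, 107 and 112 CPM with p16 and 127, 119 and 119 CPM with the empty vector and fell with p21 (-0.30 ± 0.049, edgeR adjusted p 0.000433). Lss, which closes the sterol rings to give lanosterol, had 39.1, 41.5 and 42.4 CPM with p21, 50.4, 47.2 and 51.0 CPM with p16 and 60.0, 53.6 and 56.6 CPM with the empty vector. In both genes the 3 groups were separate and p16 lay between. Lss had the largest fall of the late enzymes with p21 (-0.47 ± 0.053, edgeR adjusted p 2.49e-05) and also passed with p16 (-0.20 ± 0.053, edgeR adjusted p 0.0321). That p16 call did not hold without empty-vector replicate 1 or 3 or without any 1 p16 library (adjusted p up to 0.133). Cyp51, the lanosterol demethylase, had 123, 115 and 139 CPM with p21, 147, 143 and 150.0 CPM with p16 and 168, 156 and 156 CPM with the empty vector, and fell by 21.6% with p21 (edgeR adjusted p 0.000493).

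Msmo1, the sterol methyl oxidase that acts after Cyp51, averaged 100.1 ± 7.66 CPM with p21, 112 ± 1.62 CPM with p16 and 116 ± 4.74 CPM with the empty vector, and fell with p21 (-0.22 ± 0.052, edgeR adjusted p 0.00541). Nsdhl, its partner in removing methyl groups, stood close to the threshold with 36.02, 34.3 and 35.1 CPM with p21 and 39.4, 36.9 and 37.9 CPM with the empty vector. The groups were separate by less than 1 CPM, and its call with p21 (log2 fold change -0.12 ± 0.043, edgeR adjusted p 0.047) was lost under 13 of 17 alternatives, among them 7 of the 9 that leave out a library (all but those without empty-vector replicate 2 or p21 replicate 1, adjusted p up to 0.156). Hsd17b7, the reductase of the same demethylation complex, went the other way, with 62.5, 59.4 and 68.3 CPM with p21, 64.3, 60.4 and 64.8 CPM with p16 and 59.1, 54.6 and 57.1 CPM with the empty vector. All p21 and p16 libraries lay above all empty-vector libraries. Its rise with p21 (0.16 ± 0.056, edgeR adjusted p 0.042) was lost under 10 of 17 alternatives. Library totals alone were one of these (0.11, adjusted p 0.14), and 6 left out 1 library (empty-vector replicate 2 or 3, p21 replicate 1 or 3, p16 replicate 1 or 3). Without p21 replicate 3 its log2 fold change was 0.10.

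The other 4 late enzymes did not pass with p21. Ebp, the sterol isomerase, averaged 17.0 ± 0.756 CPM with p21, 18.4 ± 0.709 CPM with p16 and 17.5 ± 1.42 CPM with the empty vector, with a log2 fold change of -0.045 ± 0.067 with p21. Sc5d, the sterol desaturase, averaged 57.6 ± 3.27 CPM with p21, 58.7 ± 5.001 CPM with p16 and 53.5 ± 2.97 CPM with the empty vector. Its log2 fold change with p21 was positive and passed with the block only (0.11 ± 0.066, edgeR adjusted p 0.217, and 0.0305 with the block). Dhcr7, a reductase of the last step, averaged 21.1 ± 1.22 CPM with p21, 23.4 ± 1.55 CPM with p16 and 23.8 ± 1.32 CPM with the empty vector, and its log2 fold change was negative (-0.17 ± 0.064, edgeR adjusted p 0.052, and 0.0273 with the block). Tm7sf2, a sterol reductase, averaged 4.74 ± 0.875 CPM with p21, 4.94 ± 0.755 CPM with p16 and 5.18 ± 0.654 CPM with the empty vector, and 12.1% of its exon length is shared with Vps51 on the same strand. These 4 genes overlapped between p21 and the empty vector.

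Summed per library, early and late steps can be set side by side. The 8 early enzymes together reached 79.3%, 76.0% and 86.1% of the empty-vector mean in the p21 libraries and 92.7%, 90.8% and 93.4% in the p16 libraries, while the empty-vector libraries ran from 96.8% to 102.8%. The 10 late enzymes reached 86.5%, 82.6% and 91.4% in the p21 libraries and 97.2%, 94.0% and 96.9% in the p16 libraries, with empty-vector libraries from 97.1% to 104.1%. In each p21 library the percentage of the early enzymes was below that of the late ones. Against the empty vector the early sum averaged -19.5% with p21 and -7.69% with p16, and the late sum -13.1% with p21 and -3.97% with p16. The gap between early and late steps was not tested. Since these are bulk samples, fewer cells that express a gene and less of its RNA per cell cannot be told apart.

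**Figure D3:**
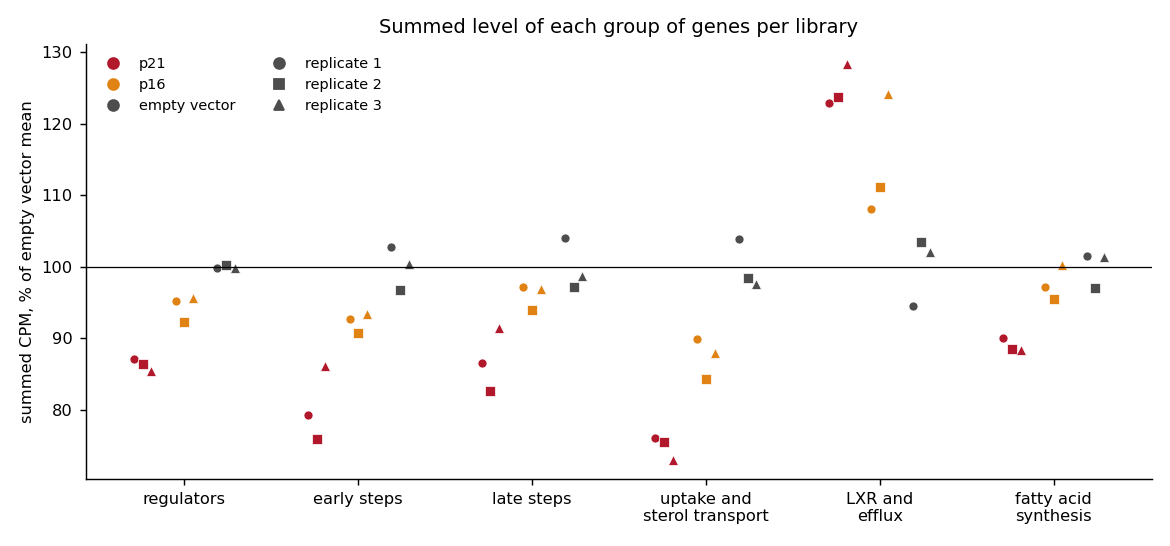
Summed CPM of each role in each library, as a percentage of the empty-vector mean (y axis, not starting at 0), with p21 in red, p16 in orange and the empty vector in grey, and replicates by shape. The p21 libraries lie below all others for every role but LXR and efflux. There they lie above all empty-vector libraries, and p16 replicate 3, at 124.1%, lies among them. Most of the LXR and efflux sum is Nr1h2.

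Stard4, a soluble carrier that moves sterol between membranes and an SREBP target, was among the genes that fell most. It had 24.9, 24.5 and 23.8 CPM with p21, 30.6, 28.7 and 28.8 CPM with p16 and 36.5, 34.0 and 33.0 CPM with the empty vector. The groups did not overlap, and p16 lay in between. Stard4 fell with p21 (-0.50 ± 0.05, edgeR adjusted p 9.25e-06) and with p16 (-0.23 ± 0.049, edgeR adjusted p 0.0113), and was lower with p21 than with p16 (-0.27 ± 0.05, edgeR adjusted p 0.00415). The p16 call was lost without empty-vector replicate 1 or p16 replicate 2 (adjusted p up to 0.06). Mylip, the LXR-controlled ubiquitin ligase that marks lipoprotein receptors for degradation, averaged 8.27 ± 0.186 CPM with p21, 8.75 ± 0.771 CPM with p16 and 9.15 ± 0.421 CPM with the empty vector, and passed no comparison (with p21, -0.15 ± 0.084, edgeR adjusted p 0.189).

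Of the 5 LXR and efflux genes, 3 rose with p21 (Nr1h2, Abca1 and Abcg1) and 1 with p16 (Abca1). Over all genes, 19.8% rose with p21 and 5.80% with p16. The 5 had median log2 fold changes of 0.71 with p21 and 0.33 with p16. Their summed CPM was +25.0% with p21 and +14.4% with p16 against the empty vector. Nr1h2 held most of that sum, with 47.0 of 64.2 CPM in the empty-vector mean, so the sum does not describe the exporters. Abca1, which hands cholesterol to lipid-poor apolipoproteins, had 15.9, 16.1 and 15.02 CPM with p21, 10.4, 12.2 and 12.5 CPM with p16 and 8.88, 9.48 and 9.46 CPM with the empty vector. All p21 libraries lay above all p16 libraries and those above all empty-vector libraries. Abca1 rose by 68.9% with p21 (0.76 ± 0.079, edgeR adjusted p 1.36e-05) and by 26.0% with p16 (0.33 ± 0.08, edgeR adjusted p 0.0194), and was higher with p21 than with p16 (0.42 ± 0.078, edgeR adjusted p 0.00391). Its p16 call was lost without empty-vector replicate 1 or 2 or without p16 replicate 2 or 3 (adjusted p up to 0.0864). Abcg1, which exports cholesterol to mature lipoproteins, was scarce, with 2.37, 1.68 and 1.90 CPM with p21, 1.98, 1.177 and 2.06 CPM with p16 and 1.19, 0.96 and 1.13 CPM with the empty vector. The p21 libraries lay above the empty vector without overlap, and p16 replicate 2 lay within it. Abcg1 rose with p21 (0.87 ± 0.24, edgeR adjusted p 0.0118), a call lost without p21 replicate 1 (0.71, adjusted p 0.0595). With p16 it did not pass (0.66 ± 0.24, edgeR adjusted p 0.0994), although it did with the block (adjusted p 0.0229) or once p16 replicate 2 was left out (0.0365).

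Apoe, the lipoprotein that carries exported cholesterol, had 8.66, 7.49 and 14.1 CPM with p21, 5.63, 8.00 and 12.9 CPM with p16 and 4.98, 5.30 and 8.31 CPM with the empty vector. Replicate 3 was the highest in each group, and the groups overlapped. Its difference with p21 did not pass (0.71 ± 0.3, edgeR adjusted p 0.0768). It passed under 6 of 17 alternatives, namely the block (adjusted p 6.59e-06), no filter, only the groups compared, replicates 1 and 2 alone, and without empty-vector replicate 3 or p16 replicate 3. The p21 library stood at 1.74, 1.41 and 1.69 times the empty-vector library of its number. With p16 the adjusted p was 0.308, and 0.00162 with the block. Nr1h2, which encodes the widely expressed LXR beta, had 51.2, 53.6 and 50.8 CPM with p21 and 45.3, 49.8 and 46.0 CPM with the empty vector, which did not overlap. It rose with p21 (0.14 ± 0.047, edgeR adjusted p 0.0295), but not with library totals alone (0.09, adjusted p 0.144) nor without empty-vector replicate 1 or 3 or p21 replicate 1 or 2 (adjusted p up to 0.106). Nr1h3, LXR alpha, was near the floor of detection at 0.713 ± 0.126 CPM with p21, 0.687 ± 0.159 CPM with p16 and 0.655 ± 0.265 CPM with the empty vector, and its counts allow no statement on direction.

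Abca1, Abcg1 and Apoe are also strongly expressed by macrophages, so macrophage and leukocyte markers were read beside them. The 18 markers summed to 60.2, 49.0 and 66.5 CPM with p21, 37.2, 40.8 and 67.5 CPM with p16 and 28.5, 33.8 and 45.5 CPM with the empty vector, which is +63.1% with p21 and +35.1% with p16. Replicate 3 was the highest of each group for the markers, as for Apoe. With p21, 6 of 18 rose, where 19.8% of all genes did, and 13 with the block, where 24.0% did. With p16 edgeR called 0 of 18 (3 at an unadjusted p under 0.05), where 11.4% of all genes were called. With the block 5 rose, where 11.3% of all genes did. No marker was at 0 in any library, and Lyz2 alone ran from 12.0 to 30.8 CPM. With replicates 1 and 2 alone, Abca1 and Abcg1 passed as higher with p21, as did Apoe (0.65, edgeR adjusted p 0.00275). In that fit Nr1h2 no longer passed with p21 (0.14, adjusted p 0.0654) and Abca1 no longer passed with p16. In these replicates the markers also summed higher with p21 (60.2 and 49.0 CPM) than with the empty vector (28.5 and 33.8 CPM). Leaving out replicate 3 therefore did not remove that difference. The part of macrophage RNA in the levels of the efflux genes was not tested.

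**Figure D4:**
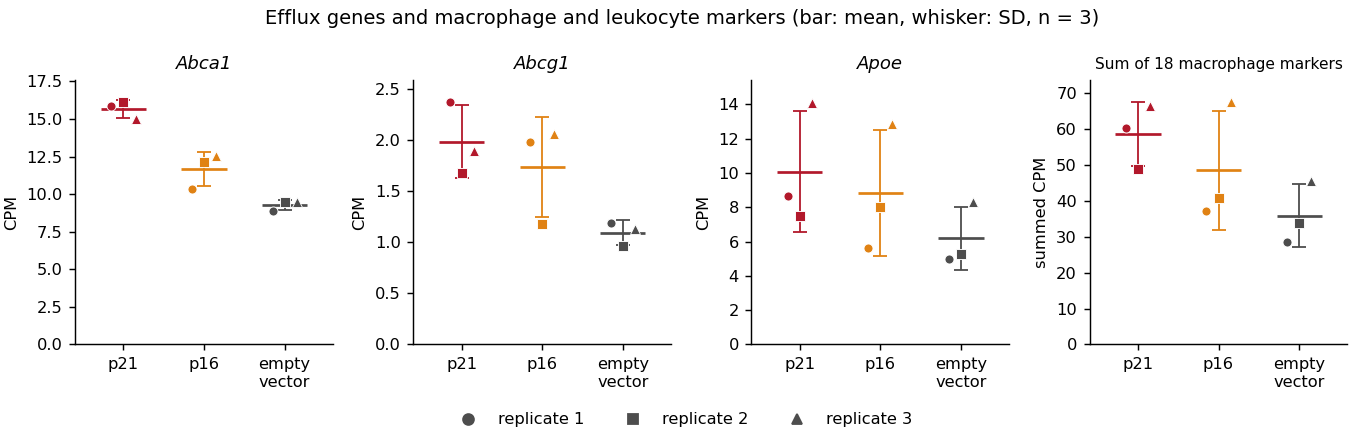
CPM (y axis, from 0) of Abca1, Abcg1 and Apoe and the summed CPM of 18 macrophage and leukocyte markers in each library, with the mean as a bar and the SD as a whisker (n = 3 each for p21, p16 and the empty vector). Replicate 3, drawn as a triangle, is highest in every group for Apoe and for the markers. For Abca1 and Abcg1 it is highest in p16 cells alone.

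Among the enzymes of fatty acid synthesis, 4 of 6 fell with p21, where 20.1% of all genes did. Elovl6, which lengthens palmitate, had the largest fall of all 36 members, with 51.0, 48.8 and 51.4 CPM with p21, 63.5, 60.5 and 58.3 CPM with p16 and 82.9, 75.3 and 71.0 CPM with the empty vector. The groups were separate with p16 in between. Elovl6 fell with p21 (-0.60 ± 0.058, edgeR adjusted p 6.65e-06) and with p16 (-0.33 ± 0.057, edgeR adjusted p 0.0038), and was lower with p21 than with p16 (-0.27 ± 0.058, edgeR adjusted p 0.00916). It was the only member called with p16 that kept its call under all 17 alternatives. Scd2, a desaturase, had 773, 737 and 793 CPM with p21, 866, 899 and 905 CPM with p16 and 897, 852 and 906 CPM with the empty vector. Here p16 overlapped the empty vector while p21 lay below both. Scd2 fell by 13.2% with p21 (edgeR adjusted p 0.000766) and its desaturase relative Scd1 by 12.5% (edgeR adjusted p 0.00223). Scd1 and Scd2 are close paralogs, and how reads that match both were counted is not given in the sources used here.

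Acaca, the carboxylase that commits acetyl-CoA to fatty acids, averaged 105 ± 0.461 CPM with p21, 108 ± 3.38 CPM with p16 and 117 ± 4.41 CPM with the empty vector, and fell with p21 (-0.17 ± 0.039, edgeR adjusted p 0.00491). Fasn, the fatty acid synthase, averaged 458 ± 40.7 CPM with p21, 479.7 ± 23.5 CPM with p16 and 502 ± 4.47 CPM with the empty vector and did not pass with p21 (-0.13 ± 0.055, edgeR adjusted p 0.0721). It passed under 4 of 17 alternatives, namely the block (adjusted p 0.0134), library totals alone, no filter and without p21 replicate 2. Acly, which supplies acetyl-CoA to both pathways, averaged 326 ± 8.40 CPM with p21, 336 ± 27.5 CPM with p16 and 333 ± 15.1 CPM with the empty vector, a log2 fold change of -0.033 ± 0.052 with p21.

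In p16 cells the members that passed were Srebf2, Pmvk, Lss, Stard4 and Elovl6, which fell, and Abca1, which rose. For each of these, p16 libraries lay between those of p21 and of the empty vector. That count of 6 ranged from 2 to 10 as single libraries were left out, with 2 called without empty-vector replicate 1 or without p16 replicate 2, 3 without empty-vector replicate 3 or p16 replicate 3, and 10 without p21 replicate 3. Further members passed with the block, namely Acat2, Hmgcs1, Idi1, Fdps, Sqle, Cyp51 and Acaca as lower and Hsd17b7, Sc5d, Abcg1 and Apoe as higher.

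Set directly against p16, p21 cells had lower Srebf2, Insig1, Acat2, Hmgcs1, Pmvk, Fdps, Fdft1, Lss, Cyp51, Stard4, Elovl6 and Scd2 and higher Abca1. By role these were 5 of 8 early enzymes and 2 of 10 late ones, all lower, where 6.91% of all genes were lower. Median log2 fold changes were -0.21 for the early enzymes and -0.13 for the late ones. Scd2 (-0.21 ± 0.036, edgeR adjusted p 0.00244) and Fdft1 (-0.24 ± 0.043, edgeR adjusted p 0.00377) were lower with p21 than with p16. Against the empty vector, neither passed with p16, Scd2 averaging 890.1 ± 20.7 CPM with p16 and 885 ± 28.9 CPM with the empty vector, and Fdft1 78.2 ± 1.41 CPM with p16 and 80.9 ± 2.89 CPM with the empty vector. Calls of 5 genes depended on single libraries, and all 5 were lost without p21 replicate 2. Hmgcs1 was also lost without p21 replicate 1 (adjusted p up to 0.0637), and Pmvk without p21 replicate 1 or p16 replicate 1 (up to 0.0714). Cyp51 was lost without p21 replicate 1 or any 1 p16 library (up to 0.0954), and Fdps without these or empty-vector replicate 2 (up to 0.107). Acat2 was lost without p21 replicate 3, p16 replicate 1 or 2 or empty-vector replicate 2 or 3 (up to 0.121). The whole count was 8 without p21 replicate 2. With the block, Mvk, Idi1, Sqle, Msmo1 and Scd1 were lower as well.

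Per length, the members spanned a wide range. On the scale of FPKM (the CPM divided by the summed exon length in kilobases), Scd2 was the most abundant at 141 with p21, 163 with p16 and 162 with the empty vector. Among sterol enzymes Hmgcs1 led with 38.0 FPKM with p21, 44.3 with p16 and 47.5 with the empty vector, ahead of Fdps at 34.7 FPKM with p21, 39.0 with p16 and 42.0 with the empty vector and Cyp51 at 28.4 FPKM with p21, 33.2 with p16 and 36.3 with the empty vector. The lanosterol synthase Lss, between Sqle and Cyp51 in the pathway, was lower at 3.80 FPKM with p21, 4.59 with p16 and 5.26 with the empty vector. Part of that gap comes from the length used, which sums every annotated exon. It is 10787 bases for Lss, 5546 for Sqle and 4415 for Cyp51. In the empty-vector libraries Lss averaged 56.8 CPM, Sqle 122 CPM and Cyp51 160 CPM. The exporters were scarce, with Abca1 at 1.51 FPKM with p21, 1.13 with p16 and 0.895 with the empty vector and Abcg1 at 0.272 FPKM with p21, 0.238 with p16 and 0.15 with the empty vector. LXR beta (Nr1h2) was present at 15.5 FPKM with p21, 15.1 with p16 and 14.02 with the empty vector, while LXR alpha (Nr1h3) was at 0.284 FPKM with p21, 0.273 with p16 and 0.26 with the empty vector.

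**Figure D5:**
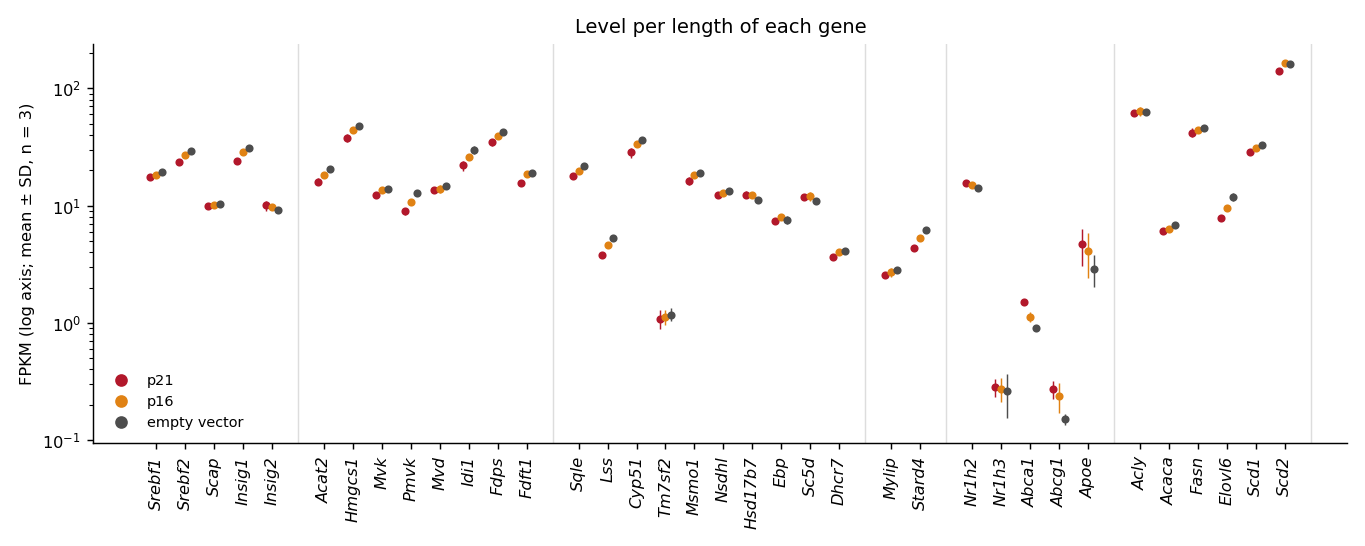
Level per length (FPKM, log axis, mean and SD of 3 libraries) of the 36 genes in the order of the fold-change plot, for p21 (red), p16 (orange) and the empty vector (grey). Scd2 lies at the top, and Abca1, Abcg1, Nr1h3 and Tm7sf2 lie near the bottom.

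With p21, genes of the wider pathway, pooled, were called in shares near those of all genes. Median log2 fold changes by list ran from -0.073 (other sterol and isoprenoid synthesis) to 0.18 (lipoprotein receptors and intracellular cholesterol transport). Of 65 further genes tested in 5 lists, 16 rose and 15 fell with p21, where 19.8% of all genes rose and 20.1% fell. With p16, 7 rose and 4 fell, where 5.80% of all genes rose and 5.56% fell. Other genes of sterol and isoprenoid synthesis (10 tested) gave 1 higher and 4 lower. Lbr, a sterol reductase that is also a nuclear envelope protein, fell to 38.5 ± 2.84 CPM with p21, against 62.2 ± 2.21 CPM with the empty vector (-0.69 ± 0.058, edgeR adjusted p 2.25e-06). Pdss1, of the ubiquinone side chain, fell (-0.58 ± 0.082, edgeR adjusted p 0.000145), while Por, the electron donor of Cyp51 and Sqle, rose (0.31 ± 0.041, edgeR adjusted p 7.04e-05). Genes of SREBP processing and sterol-regulated degradation (11 tested) gave 2 higher and 3 lower. Here Mbtps2, the membrane protease that releases SREBP (-0.16 ± 0.052, edgeR adjusted p 0.0291), the ubiquitin ligase Rnf139 (-0.23 ± 0.06, edgeR adjusted p 0.00909) and Erlin1 (-0.22 ± 0.052, edgeR adjusted p 0.00492) fell, and Erlin2 rose (0.32 ± 0.038, edgeR adjusted p 4.09e-05). The erlins are membrane proteins of the endoplasmic reticulum. Exon sequence is shared with a neighbour over 28.4% of Mbtps2 (Yy2, same strand) and 22.3% of Rnf139 (Tatdn1, other strand). The same holds on the other strand for 9.24% of Lbr (Dnah14) and 9.44% of Pdss1 (A130006I12Rik and Abi1).

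Genes of lipoprotein receptors and intracellular cholesterol transport (19 tested) gave 8 higher and 2 lower with p21, where 19.8% of all genes rose and 20.1% fell. Npc2, which lifts cholesterol out of the lysosome, averaged 321 ± 14.4 CPM with p21, 265 ± 4.45 CPM with p16 and 233 ± 3.70 CPM with the empty vector and rose with p21 (0.46 ± 0.035, edgeR adjusted p 9.92e-07). Lipa, the lysosomal lipase that frees cholesterol from its esters, rose as well (0.28 ± 0.058, edgeR adjusted p 0.00194). Lrp8, an apolipoprotein E receptor, fell (-0.60 ± 0.049, edgeR adjusted p 1.58e-06). Of other LXR targets, partners and oxysterol enzymes (12 tested), 4 rose and 2 fell. The log2 fold change with p21 was below 0 in 8 of the 12, with a median of -0.044. The 4 named here had the smallest adjusted p of that list with p21. Ch25h, which makes an oxysterol that activates LXR and blocks SREBP processing, averaged 8.34 ± 0.497 CPM with p21, 7.04 ± 0.454 CPM with p16 and 4.06 ± 0.489 CPM with the empty vector, and rose with p21 (1.04 ± 0.11, edgeR adjusted p 1.06e-05) and p16 (0.80 ± 0.11, edgeR adjusted p 0.000861), with 11.5% of its exon length shared with Gm26902 on the other strand. Cyp7b1, which breaks such oxysterols down, fell with p21 (-0.37 ± 0.12, edgeR adjusted p 0.0335). Smpdl3a, an LXR target, rose (0.47 ± 0.089, edgeR adjusted p 0.00114), and Abca7, a relative of Abca1, fell (-0.40 ± 0.063, edgeR adjusted p 0.000332). Of other fatty acid and lipid synthesis genes (13 tested of 14), 1 rose and 4 fell, namely the desaturases Fads1 (-0.27 ± 0.032, edgeR adjusted p 3.14e-05) and Fads2 (-0.27 ± 0.04, edgeR adjusted p 0.000177), the elongase Elovl5 (-0.25 ± 0.04, edgeR adjusted p 0.000367) and the acyltransferase Gpam (-0.39 ± 0.069, edgeR adjusted p 0.000767).

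Cell division genes moved beside the pathway. All 20 genes of a G2/M and mitosis list fell with p21 and 19 of 20 fell with p16, where 20.1% and 5.56% of all genes fell. Their summed CPM was -47.7% with p21 and -19.2% with p16. The order of the groups, with p16 between p21 and the empty vector, was that of Srebf2, Pmvk, Lss, Stard4 and Elovl6. These are the members called lower with p16, so their order follows in part from that choice. Of the rest, Insig1, Acat2, Idi1, Fdps, Sqle and Cyp51 also kept it without overlap of libraries. In group means, p16 lay outside p21 and the empty vector for Ebp, Sc5d, Acly and Scd2 alone. Scd2 averaged 890 CPM with p16 and 885 CPM with the empty vector. Sc5d averaged 57.6 CPM with p21, 58.7 CPM with p16 and 53.5 CPM with the empty vector. The part of cell division in the lower synthesis genes was not tested.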

How the data were processed

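RNA-seq counts per gene symbol were deposited by the authors in 1 table for 9 libraries. Per the submitters' processing notes, the tools were TopHat2 2.0.14, Bowtie2 2.2.6 and, from Subread, featureCounts 1.4.6, with mm10 as genome build. How the counting treated strand, and its annotation, are not given in the sources used here. Per the labels' protocols the kit was TruSeq RNA v2, which does not mark strand, so overlapping genes on opposite strands cannot be separated. The deposited counts were whole numbers without further normalization.

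Counts were analysed with edgeR 4.0.16 (R 4.3.3). The filter filterByExpr, at a minimum count of 10 and a minimum total of 15, left 14223 genes, and TMM set the scaling. A quasi-likelihood model by group was fitted to the 9 libraries together (6 residual degrees of freedom), and its F tests were adjusted by Benjamini-Hochberg across every gene tested, a gene being called at 0.05. The SE was computed from each log2 fold change and its F value (the fold change over the root of F). CPM used the TMM-scaled totals, and FPKM divided the CPM by the summed exon length from GENCODE M21, which matched 22750 of 24062 symbols. Depth ran from 44455730 to 63152239 counts. Replicates of a group differed by more than counting error, with chi-squared values of 5.30 to 17.1 per degree of freedom. Promoter windows came from RefSeq. The procedure was tested on simulated data with known changes.

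All members are described, with up to 4 called genes of smallest adjusted p from each further list. The members and lists were chosen with earlier results of these data known. Replicate numbers come from the sample titles. Once group means were removed, r across genes was 0.126 to 0.361 between libraries of the same number and -0.246 to 0.106 between the rest. Each of the 9 was most like its own number, and the numbers were taken to pair the samples. No block was used for the main results. The alternatives were DESeq2 size factors, library totals, no filter, the DESeq2 1.42.0 Wald test, limma-voom (limma 3.58.1), only the groups compared, the replicate block, replicates 1 and 2 alone, and each library left out. Figures were drawn with matplotlib 3.10.9 and pandas 2.3.3 under Python 3.11.15. Some genes that the naming rule selects from the wider lists are counted there but not reported here by name.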

Additional observations from a re-analysis of the deposited data

How the results depend on the processing

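Genes and members were recounted under 17 alternatives. With p21 against the empty vector the 24 member calls stayed between 20 and 24 as single libraries were left out and were 30 with the replicate block, and 18 of the 24 members kept their call under all 17. With p16 the 6 calls became 10 with library totals alone, 12 with only the groups compared and 17 with the replicate block, and 2 to 10 with 1 library left out, and 1 of the 6 (Elovl6) kept its call throughout. Between p21 and p16 the 13 calls ran from 8 to 15 with 1 library left out, and 8 of the 13 members kept their call throughout. Over all genes, the replicate block gave 3044 calls with p16 in place of 1616 and 3214 between p21 and p16 in place of 1858. Single libraries left out gave 759 to 1894 calls with p16, with 759, 984 and 1070 without p16 replicate 2, 3 or 1 and 826 and 921 without empty-vector replicate 1 or 2. Between p21 and p16 they gave 1074 to 1810, with 1074 and 1151 without p16 replicate 1 or 2 and 1078 without p21 replicate 1. Where a call was lost, the cause was not tested. Sign changes were seen for members that passed the test with neither sign, given here as log2 fold changes. In p21 against the empty vector, leaving out 1 library turned the sign of Tm7sf2 (-0.24 to 0.016), Ebp (-0.082 to 0.023), Nr1h3 (-0.14 to 0.48) and Acly (-0.063 to 0.0017). In p16 against the empty vector, leaving out 1 library turned the sign of Scap (-0.064 to 0.0021), Mvk (-0.073 to 0.0047), Tm7sf2 (-0.16 to 0.053), Dhcr7 (-0.081 to 0.011), Nr1h3 (-0.21 to 0.40), Acly (-0.058 to 0.055) and Scd2 (-0.020 to 0.025). In p21 against p16, leaving out 1 library turned the sign of Insig2 (-0.012 to 0.12), Mvd (-0.093 to 0.012), Tm7sf2 (-0.18 to 0.081), Hsd17b7 (-0.051 to 0.050), Sc5d (-0.084 to 0.040), Nr1h3 (-0.11 to 0.21), Abcg1 (-0.020 to 0.34), Apoe (-0.12 to 0.56), Acly (-0.088 to 0.024) and Fasn (-0.12 to 0.0022). Replicates 1 and 2 alone turned the sign of Ebp (0.041) in p21 against the empty vector, and of Nr1h3 (-0.10) and Acly (-0.023) in p16 against the empty vector, and of Hsd17b7 (-0.031), Mylip (0.0041), Acly (0.010) and Fasn (0.023) in p21 against p16. Library totals alone turned the sign of Acly (-0.021) and Scd2 (-0.023) in p16 against the empty vector, and of Hsd17b7 (-0.013) in p21 against p16. Nr1h3, Abcg1, Tm7sf2, Apoe and Mylip had the fewest counts, and depth limits what can be said of them.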
